A study of Mus musculus with 21 samples.

Results

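The neutrophil granule genes described here are 10 of the 24391 gene symbols counted in each library, and they were taken by name. Mpo, Elane, Prtn3 and Ctsg encode proteins of the early, primary granules. Ltf, Camp, Ngp and Mmp8 encode proteins of the later, secondary and tertiary granules. S100a8 and S100a9 encode the 2 subunits of calprotectin, a calcium-binding protein that fills the neutrophil cytosol. All 10 were found, and all were followed in 21 libraries of brain, liver and skin from 7 newborn mice labelled C57BL/6 (C57BL/6J in the methods) at P0. The 2 KI mice were heterozygous for the Jak1 knock-in (Jak1 KI +/-, written in full as Jak1 H595D/+;I596I/+;Y597Y/+), in which H595D changes the protein and I596I and Y597Y are silent changes on the same repair template. The 5 WT mice were wild type. The study made the allele with CRISPR/Cas9 and obtained heterozygous offspring from a mosaic male. Whether both KI mice sequenced came from that male is not given in the sources used here. RNA came from whole tissue, so fewer neutrophils and less RNA per neutrophil cannot be told apart.

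Neutrophils make their granules in a fixed order. Promyelocytes fill primary granules with myeloperoxidase and serine proteases, myelocytes and metamyelocytes fill secondary granules with lactoferrin and cathelicidin, and gelatinase-rich tertiary granules come last. The transcripts of granule proteins are made in these dividing or maturing precursors and are largely switched off in circulating neutrophils. Surface receptors such as Cxcr2 mark later stages. In the mouse the liver is the main site of blood formation before birth, and it still holds myeloid precursors at P0. High granule transcripts in a newborn liver are therefore a feature of normal tissue, and the comparisons below ask how the early and late genes stood there, how much of each was found in skin and brain, and how KI mice differed from WT mice within each tissue.

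The genes lie on 5 chromosomes in NCBIM37, the build of the counts (mm9). Prtn3 (chr10:79337221-79345919) and Elane (chr10:79349057-79350961) are neighbours with 3138 bases between them. S100a8 (chr3:90472993-90473956) and S100a9 (chr3:90496554-90499643) lie 22598 bases apart on opposite strands. Camp (chr9:109749889-109751970), Ngp (chr9:110322254-110325514) and Ltf (chr9:110921796-110945270) lie along 1 stretch of chromosome 9, with Mmp8 (chr9:7558429-7568486) far from them. Mpo is at chr11:87607083-87617915 and Ctsg at chr14:56718718-56721411.

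Promoters of 6 members are shown because these genes carry the results: Mpo and Prtn3 stand for the early genes, Ngp and Mmp8 for the late genes, and S100a8 and S100a9 for calprotectin. Each sequence runs from 250 bases before to 50 bases after the start of the gene in RefSeq (table of GRCm38.p6) and was found once on its chromosome in NCBIM37. The positions are chr11:87607036-87607335 for Mpo, chr10:79342162-79342461 for Prtn3, chr9:110322062-110322361 for Ngp, chr9:7558179-7558478 for Mmp8 and chr3:90472743-90473042 for S100a8, all on the plus strand, and chr3:90499594-90499893 on the minus strand for S100a9. Capitals mark matches on either strand, and adjoining matches run together. The motif of PU.1, a leading factor of myeloid cells, was taken as GAGGAA and that of C/EBP factors as TTNCNNNAA. RUNX factors were given the letters TGTGGT. The letters searched for at the core promoter were TATAAA.
Mpo: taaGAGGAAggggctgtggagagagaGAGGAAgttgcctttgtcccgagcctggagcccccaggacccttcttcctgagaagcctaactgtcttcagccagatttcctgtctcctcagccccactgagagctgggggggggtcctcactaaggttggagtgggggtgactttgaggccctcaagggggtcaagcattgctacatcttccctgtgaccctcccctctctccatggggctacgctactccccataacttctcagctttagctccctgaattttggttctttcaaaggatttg
Prtn3: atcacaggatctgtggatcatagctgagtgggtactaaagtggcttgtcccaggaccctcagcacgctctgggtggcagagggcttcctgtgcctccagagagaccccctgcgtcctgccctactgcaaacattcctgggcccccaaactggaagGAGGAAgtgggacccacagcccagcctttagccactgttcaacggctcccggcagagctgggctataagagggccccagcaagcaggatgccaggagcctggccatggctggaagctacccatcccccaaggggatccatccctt
Ngp: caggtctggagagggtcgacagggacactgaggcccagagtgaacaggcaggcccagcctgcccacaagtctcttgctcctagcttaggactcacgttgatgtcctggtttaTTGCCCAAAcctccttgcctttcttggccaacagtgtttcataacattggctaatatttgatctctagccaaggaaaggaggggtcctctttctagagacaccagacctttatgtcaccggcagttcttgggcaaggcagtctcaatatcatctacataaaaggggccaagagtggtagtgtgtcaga
Mmp8: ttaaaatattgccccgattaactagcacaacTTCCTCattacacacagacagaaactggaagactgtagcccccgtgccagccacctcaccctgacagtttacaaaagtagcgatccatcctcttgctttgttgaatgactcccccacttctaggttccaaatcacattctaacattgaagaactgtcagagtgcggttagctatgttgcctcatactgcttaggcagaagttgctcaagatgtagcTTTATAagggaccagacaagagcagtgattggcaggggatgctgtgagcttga
S100a8: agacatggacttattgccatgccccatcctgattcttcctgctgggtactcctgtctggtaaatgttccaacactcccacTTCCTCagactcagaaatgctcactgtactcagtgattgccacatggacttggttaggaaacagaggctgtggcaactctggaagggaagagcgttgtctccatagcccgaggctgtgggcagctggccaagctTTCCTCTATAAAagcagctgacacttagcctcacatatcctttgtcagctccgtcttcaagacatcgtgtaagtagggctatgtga
S100a9: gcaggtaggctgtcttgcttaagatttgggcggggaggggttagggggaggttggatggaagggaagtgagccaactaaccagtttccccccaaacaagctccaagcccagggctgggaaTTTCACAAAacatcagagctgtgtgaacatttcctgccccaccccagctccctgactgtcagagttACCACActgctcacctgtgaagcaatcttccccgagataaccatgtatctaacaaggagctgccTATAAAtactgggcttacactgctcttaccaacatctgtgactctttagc

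GAGGAA was found in the promoters of 7 of the 10 members, among them all 4 early genes, and in 28.1% of 32544 promoters of the same length. The other motifs were found in 3 members for C/EBP against 36.7% of promoters, in 3 for RUNX against 16.7%, and in 4 for TATAAA against 13.6%. Mpo and S100a8 each held 2 matches to GAGGAA, and the promoter of Camp held no match to any of the 4 motifs. A match describes letters in this window and says nothing of binding.

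The libraries held 26549326 to 38388133 counts on genes, and 30.4% to 38.1% of all lines of the read counting were not assigned to a gene. Lines that were not unique made up 17.1% to 25.4%, and lines on no gene or ambiguous between genes 9.40% to 15.5%. Levels are given as CPM, counts scaled to the total on genes of each library. A count of 0 allows at most 0.0781 to 0.113 CPM, depending on the library, and this limit covers counting error alone. No 2 libraries of a group agreed within sampling noise. Libraries of the 3 tissues with the same genotype and number agreed in Y-linked expression for 7 of 7 mice. By this expression 2 of the 7 mice were male, so the agreement cannot tell mice of 1 sex apart. Which mice were male is not reported here. Sex was not part of the fits, and its part in the differences between KI and WT was not tested. RNA of the skin was less intact than that of the liver per the methods, and the libraries of a group are separate mice. Hepatocyte markers summed to at least 177545 CPM in each liver and to at most 2414 CPM in any brain or skin. Counts per gene do not show the edited bases and so cannot check the genotype, and Jak1 itself differed between KI and WT by 0.21 on the log2 scale in brain (adjusted p = 0.719), 0.30 in liver (adjusted p = 0.125) and 0.18 in skin (adjusted p = 0.999).

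In WT liver the granule genes were abundant, with the S100 genes at the top of the order. The 10 members took 0.503% ± 0.0528 (SD, n = 5) of all counts on genes. Per kilobase of exon, on top of the scaling of CPM (RPKM), S100a9 was highest at 3234 ± 349 (SD, n = 5), followed by S100a8 at 2799 ± 312, and the ranges of these 2 overlapped. Ngp, a cathelicidin-related protein of secondary granules, came next at 700.3 ± 90.0 RPKM, followed by Camp, the precursor of cathelicidin, at 462 ± 57.2. Neither range overlapped with its neighbours in the order.

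Ltf, the iron-binding lactoferrin, had 165 ± 28.8 RPKM in WT liver, Elane (neutrophil elastase) 101 ± 25.1 and Mpo (myeloperoxidase, which makes hypochlorous acid) 96.9 ± 24.4, and these 3 overlapped in range with the gene next in order. Prtn3 (proteinase 3) had 67.8 ± 9.71 RPKM, Ctsg (cathepsin G) 38.7 ± 4.53 and Mmp8 (neutrophil collagenase) 34.7 ± 4.72. The range of Prtn3 lay clear of that of Ctsg, and those of Ctsg and Mmp8 overlapped, so the late class held both Ngp near the top of the order and Mmp8 at its foot. Summed per kilobase, early genes stood at 0.221 of the late genes, a log2 share of -2.18 ± 0.235 (SD, n = 5).

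Across the 7 livers the members varied together, as a description of libraries that share tissue and depth. Pearson correlations of log2 CPM had a median of 0.81 between early genes (6 pairs), 0.86 between late genes (6 pairs) and 0.77 between early and late genes (16 pairs, from 0.39 to 0.94). S100a8 and S100a9 correlated at 0.97. Of 10830 genes with a mean of at least 5 CPM in the liver, those most like Mpo were Kdm5b (r = 0.99), Bcap31, Capns1, Dctn3 and Gmpr2 (r = 0.97), and those most like Ngp were Rer1 (0.98), Tmem154, Serpinb1a, B430306N03Rik and Pfkfb4 (0.97), over 7 libraries each.

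All 10 members were far lower in WT skin and WT brain than in WT liver. In the test across the 15 WT libraries (edgeR, adjusted p under 0.1 and a log2 fold change of at least 2), 10 of 10 were higher in liver than in brain, against 19.2% of 17071 genes (0 lower, against 22.6%), and 10 of 10 were higher in liver than in skin, against 10.6% (0 lower, against 18.7%). The log2 differences from brain ran from 5.41 ± 0.301 (SE, adjusted p = 8.79e-11) for Prtn3 to 13.81 ± 0.787 (adjusted p = 1.18e-10) for Elane. Those from skin ran from 4.17 ± 0.423 (adjusted p = 2.75e-07) for Ctsg to 11.93 ± 0.507 (adjusted p = 1.32e-11) for Mpo.

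As a percentage of the mean CPM in WT liver, the skin held a median of 0.660% over the 10 genes, from 0.0423% for Mpo to 9.17% for Ctsg. The brain held a median of 0.0750%, from 0.0081% for Elane to 4.06% for Prtn3. For comparison, 9 hepatocyte markers stood at a median of 0.0111% of their liver level in skin and 0.00523% in brain, and 7 detected erythroid markers at 0.609% in skin and 0.34% in brain. The 19 genes of a mature neutrophil list with at least 5 CPM in WT liver stood higher, at 4.07% in skin and 0.442% in brain, although this list holds Asprv1, which keratinocytes also express. How much of the skin and brain levels came from blood held in the tissue was not tested.

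**Figure D1:**
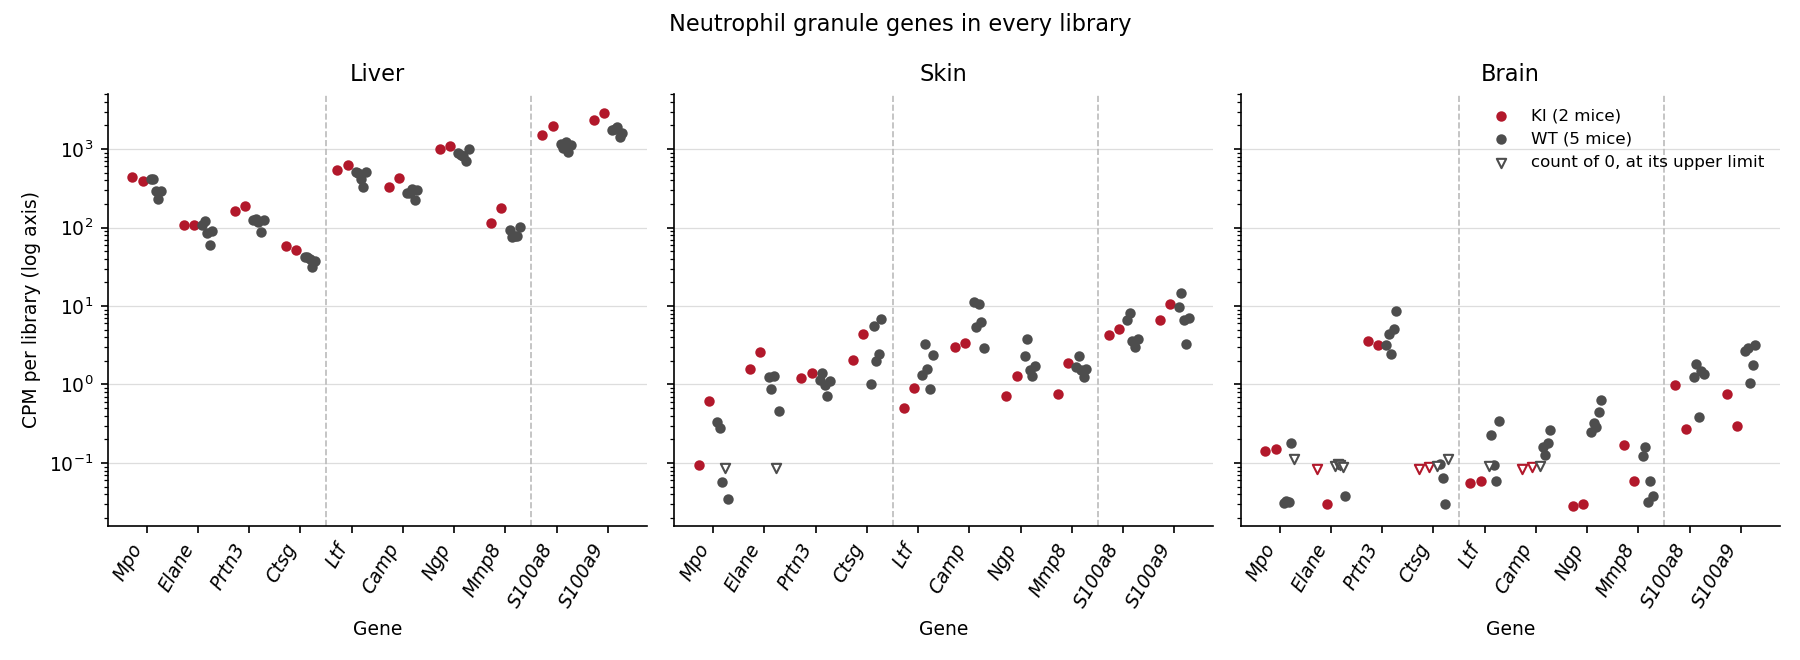
CPM of the 10 genes in each library on a log axis, with KI mice in red and WT mice in grey, early genes left of the first dashed line, late genes between the lines and S100 genes to the right. Open triangles mark a count of 0 at its upper limit of 3 counts. In the brain Prtn3 lies between 2.48 and 8.59 CPM while Elane does not exceed 0.0377.

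Skin held more of most members than brain did. Of the 10 genes, 7 were higher in WT skin than in WT brain, against 18.6% of 17071 genes, and 1 was lower, against 15.3%. Ctsg was higher by 6.43 ± 0.641 on the log2 scale (SE, adjusted p = 1.66e-07), Camp by 5.72 ± 0.472 (adjusted p = 1.78e-08) and Mmp8 by 4.30 ± 0.277 (adjusted p = 9.83e-10). Prtn3 was lower in skin (-2.08 ± 0.294, adjusted p = 8.47e-06). S100a9 differed by 1.87 ± 0.333, below the fold size asked for, and Mpo by 1.24 ± 0.826 (adjusted p = 0.186).

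Mpo was at the bottom of the skin order, with 0.0409 ± 0.0445 RPKM (SD, n = 5), and its range did not overlap with that of Prtn3, the next above it at 0.619 ± 0.142. Elane, which like Mpo is made by promyelocytes and which stood beside Mpo in the liver, had 0.841 ± 0.597 RPKM in WT skin. Camp and Ctsg came just below the S100 genes there, at 12.1 ± 5.97 and 3.55 ± 2.46 RPKM. Both have other known sources in skin, Camp in keratinocytes and Ctsg in mast cells. The 10 mast cell markers summed to 2388 to 3860 CPM in WT skin and to 38.0 to 51.7 CPM in WT liver, and the part of mast cells in the Ctsg level was not tested.

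The ratio of Mpo to Ngp, an early to a late gene, was lower in skin than in liver in 5 of 5 WT mice, with a mean log2 difference between liver and skin of 3.10 ± 1.18 (SD, n = 5, exact sign-flip permutation, two-sided p = 0.0625, adjusted p = 0.188 over 9 ratios). This p is the smallest that 5 mice allow, so no WT ratio could pass a threshold of 0.05. The ratio of S100a9 to Ngp went the other way. It was lower in liver, with a mean log2 difference of -0.89 between liver and skin and of -1.52 between liver and brain, and above 0 in 0 of 5 mice in each (exact sign-flip permutation p = 0.0625, adjusted p = 0.188).

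Elane and Prtn3 each lie beside a gene that was very abundant in 1 of the tissues. Elane lies 2637 bases before Cfd, the fat-cell gene of complement factor D. Over the 7 skins, Elane ran from 0 to 2.62 CPM and Cfd from 42.0 to 2381 CPM, and the 2 correlated at a Spearman rho of 0.79 and a Pearson r of 0.92, given as a description of libraries that share tissue and depth. The skin with the lowest Cfd (WT 4) had an Elane count of 0, and the skin with the highest Cfd (KI 2) had the highest Elane. Mpo, on another chromosome, correlated with Cfd at a rho of 0.79 and an r of 0.88 on counts of 0 to 18. The part of Cfd reads in the Elane counts was not tested.

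Prtn3 was the sole early gene with more than 6 counts in any brain. It had 129 and 108 counts in the KI brains and 104, 138, 78, 171 and 228 in the WT brains, while Elane had 0 or 1. In the GENCODE annotation a long transcript of Prtn3 shares 159 bases with Lppr3, a neuronal gene on the opposite strand. The RefSeq promoter window of Prtn3 shown above starts at chr10:79342162, past the end of Lppr3 at 79337379. The methods do not name the gene models used for the counts, so an overlap in the counted models is not known. The library kit named in the methods does not keep the strand. Lppr3 ran from 333 to 647 CPM in the brains, and WT 5 was highest for both genes (Spearman rho 0.50, Pearson r 0.88 over 7 brains). Without strand, reads of a shared stretch cannot be assigned to either gene with certainty, and their part in the Prtn3 counts was not tested.

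**Figure D2:**
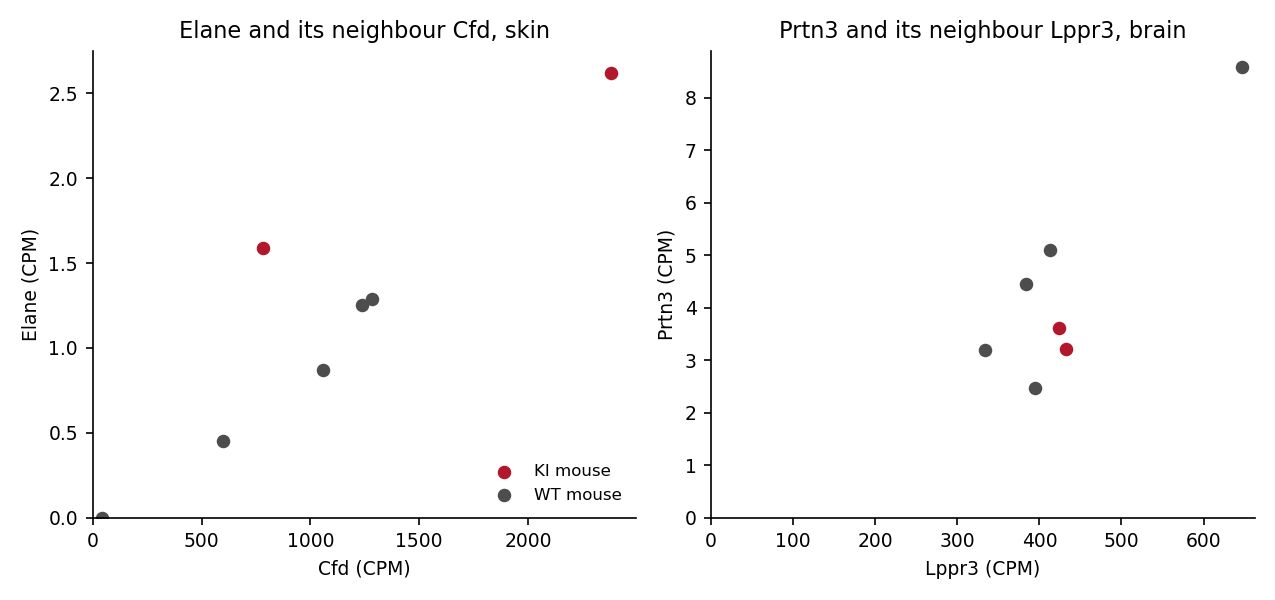
Left, Elane against Cfd in the 7 skins, and right, Prtn3 against Lppr3 in the 7 brains, both in CPM, 1 point for each mouse (KI red, WT grey). In skin the points run from 0 to 2.62 CPM of Elane while Cfd goes from 42.0 to 2381 CPM, and in brain WT 5 lies apart at 647 CPM of Lppr3 and 8.59 CPM of Prtn3.

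In the liver, 5 of the 10 members were higher in KI than in WT mice: Prtn3, Ctsg, Mmp8, S100a8 and S100a9. The number called lower was 0 of 10. The liver test covered 14966 genes, of which 3.89% were higher and 1.68% lower at an adjusted p under 0.1. The estimates of all 10 members lay above 0, from 0.22 for Elane to 0.75 for Mmp8, with a median log2 fold change of 0.46 against -0.02 for all genes tested. The medians were 0.41 for the early genes (2 of 4 called), 0.39 for the late genes (1 of 4 called) and 0.62 for the S100 genes (2 of 2 called).

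S100a9 had 2339 and 2870 CPM in the KI livers and 1756, 1780, 1884, 1415 and 1606 CPM in the WT livers. S100a8 had 1494 and 1960 CPM in KI and 1157, 1023, 1243, 929 and 1133 CPM in WT. For both genes each KI liver lay above each WT liver. The log2 fold changes were 0.61 ± 0.127 (SE, adjusted p = 0.0403) for S100a9 and 0.64 ± 0.142 (adjusted p = 0.0519) for S100a8. The log2 ratio of S100a8 to S100a9 was -0.60 in KI and -0.62 ± 0.108 (SD, n = 5) in WT livers (difference 0.02, exact permutation over 21 splits, two-sided p = 0.714, adjusted p = 0.804).

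Mmp8, the collagenase of late granules, had 116 and 175 CPM in the KI livers against 94.3, 76.0, 77.3, 77.0 and 101 CPM in the WT livers, a log2 fold change of 0.75 ± 0.168 (SE, adjusted p = 0.0520). The groups did not overlap, and the KI livers differed from each other by more than the WT livers did. Ltf had 539 and 634 CPM in KI against 331 to 516 CPM in WT (0.36 ± 0.165, adjusted p = 0.292), and Camp 333 and 422 CPM against 224 to 312 CPM (0.42 ± 0.148, adjusted p = 0.177). Ngp had 1010 and 1110 CPM in KI and 705 to 1008 CPM in WT (0.30 ± 0.137, adjusted p = 0.296). These 3 late genes did not overlap between the groups either, though for Ngp the nearest libraries nearly touched, and edgeR called 0 of the 3, while DESeq2 called Camp.

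Among the early genes, Prtn3 had 164 and 188 CPM in the KI livers and 124, 130, 118, 88.5 and 126 CPM in the WT livers, a log2 fold change of 0.57 ± 0.141 (SE, adjusted p = 0.0722). Ctsg had 58.0 and 52.0 CPM in KI and 42.1, 42.7, 39.6, 31.4 and 37.8 CPM in WT (0.49 ± 0.117, adjusted p = 0.0645). Both stood above each WT liver in each KI liver. Mpo had 442 and 397 CPM in KI and 419, 420, 295, 234 and 291 CPM in WT (0.33 ± 0.197, adjusted p = 0.421). Elane had 109 CPM in both KI livers and 60.5 to 121 CPM in WT (0.22 ± 0.203, adjusted p = 0.623). For these 2 genes the groups overlapped, with WT 1 and WT 2 the highest of the WT livers.

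In all, the KI livers lay above each WT liver for 8 of 10 members, against 14.0% of 14513 genes with a mean count of at least 10, and below each WT liver for 0 of 10, against 10.2%. The calls depended on single mice. Without KI 2 the count of members called higher was 0 of 10 (0.32% of all genes were then called higher), and without WT 2 it was 2 (Ctsg and S100a9, with 2.81% of all genes). Without KI 1 (1.28% of all genes) or WT 1 (2.62%) it was 3 (Mmp8, S100a8 and S100a9). All 10 estimates stayed above 0 when any 1 mouse was left out. DESeq2 called 6 members, the same 5 and Camp, with 5.31% of all genes called higher. At an adjusted p under 0.05 the count was 1 (S100a9, with 2.02% of all genes), and in 1 fit of all 21 libraries, which share 1 estimate of spread over the 3 tissues, it was 0, with 0.864% of all genes called higher.

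**Figure D3:**
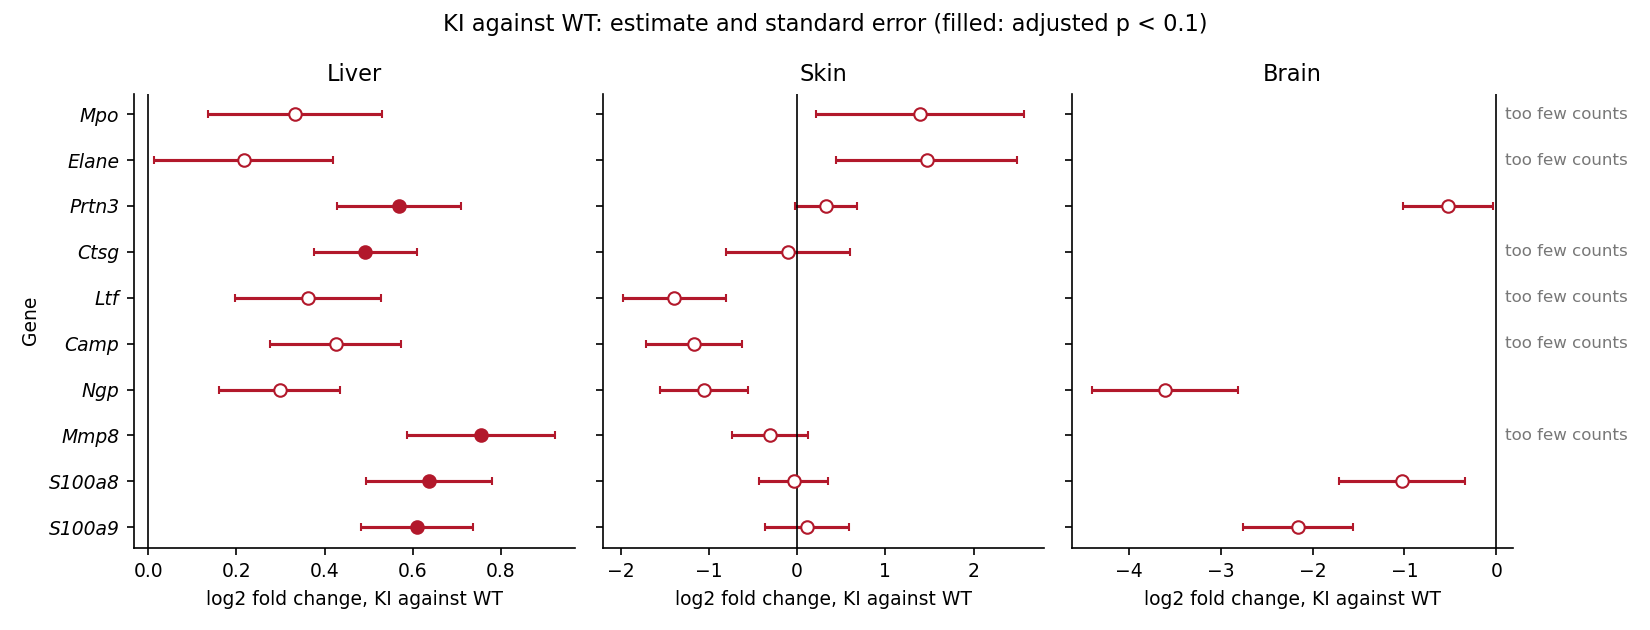
Log2 fold change of KI against WT for each of the 10 genes in liver, skin and brain, with bars of 1 standard error. Filled points passed an adjusted p of 0.1, and each panel has its own scale. In the liver all 10 points lie above 0 and 5 are filled, in skin the 4 late genes lie below 0, and in brain 4 genes had enough counts to be tested.

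The early-to-late share of the liver differed by 0.02 between the genotypes. The log2 share was -2.15 (-2.28 and -2.02) in KI livers and -2.18 ± 0.235 (SD, n = 5) in WT livers, that is 0.225 and 0.221 early per late on the linear scale. For the single pair of Mpo and Ngp the log2 ratio was -1.34 in KI and -1.39 ± 0.339 in WT, a difference of 0.05 (exact permutation over 21 splits, two-sided p = 0.905, adjusted p = 0.905). The KI livers lay within the range of the WT livers for this ratio. The log2 ratio of S100a9 to Ngp was 1.21 and 1.37 in KI livers and 0.671 to 1.20 in WT livers, without overlap. Its difference was 0.30 (exact permutation p = 0.143, adjusted p = 0.257).

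The mature neutrophil list gave larger estimates than the granule genes, without a test between the lists. Of 21 genes of the mature neutrophil list, 15 were higher in KI liver and 0 lower, with a median log2 fold change of 0.87, led by Clec4d (1.76 ± 0.212, SE, adjusted p = 0.00544), Csf3r, the receptor of G-CSF (1.20 ± 0.219, adjusted p = 0.0260), Clec4e (1.19) and Asprv1 (1.14). Csf3r had 38.1 and 52.4 CPM in KI livers against 14.2 to 25.3 CPM in WT livers. Without KI 2 the count for this list was 1 of 21, and in the fit of all 21 libraries it was also 1.

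Of 20 other genes of secondary, tertiary and secretory granules, 9 were higher (median 0.52), with Arg2 (2.07), Lrg1 (1.62), Bst1 (1.07) and the phagosomal metal transporter Slc11a1 (0.70) leading. Which liver cells, hepatocytes among them, made the transcripts of this list was not tested. Of 9 other genes of primary granules and promyelocytes, 2 were higher (median 0.37), namely Srgn, the proteoglycan core of granules (0.83), and Igsf6 (0.36). Among 10 transcription factors of granulocyte formation, Spi1, which encodes PU.1 (0.59 ± 0.127, adjusted p = 0.0461), and Runx1 (0.51 ± 0.112, adjusted p = 0.0502) were higher.

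Among 13 tested growth factors, chemoattractants and adhesion genes, 4 were higher: the selectins Sele (3.61) and Selp (2.80), Il6 (2.89) and Cxcl1 (2.47). Selp, which lets neutrophils roll on endothelium, had 23.7 and 23.5 CPM in KI livers and 2.42 to 4.94 CPM in WT livers.

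Markers of other blood lineages changed beside the granule genes. Of 15 monocyte and macrophage markers 7 were higher (median 0.52, led by Ccr2 at 1.26, Cd5l at 0.77, C1qb at 0.58 and Cd68 at 0.56), of 8 myeloid progenitor markers 3 were higher (Cd48, Irf8 and Csf1r, median 0.47), and of 7 eosinophil and basophil markers 3 were higher (Ccr3 3.52, Mcpt8 1.85 and Prss34 1.67). Of 7 tested erythroid markers 0 were higher and 2 lower, among them Slc4a1 (-0.51), with a median of -0.43, and 0 of 9 hepatocyte markers passed in either direction (median -0.16). The erythroid markers summed to 2975 and 3013 CPM in KI livers and 3324 to 4982 CPM in WT livers, and the monocyte and macrophage markers to 1801 and 2116 CPM against 1143 to 1527 CPM. Globin genes, which have near-identical copies, were near 0 in the counts and are uncertain. The part of this shift in blood cell markers in the granule gene estimates was not tested.

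**Figure D4:**
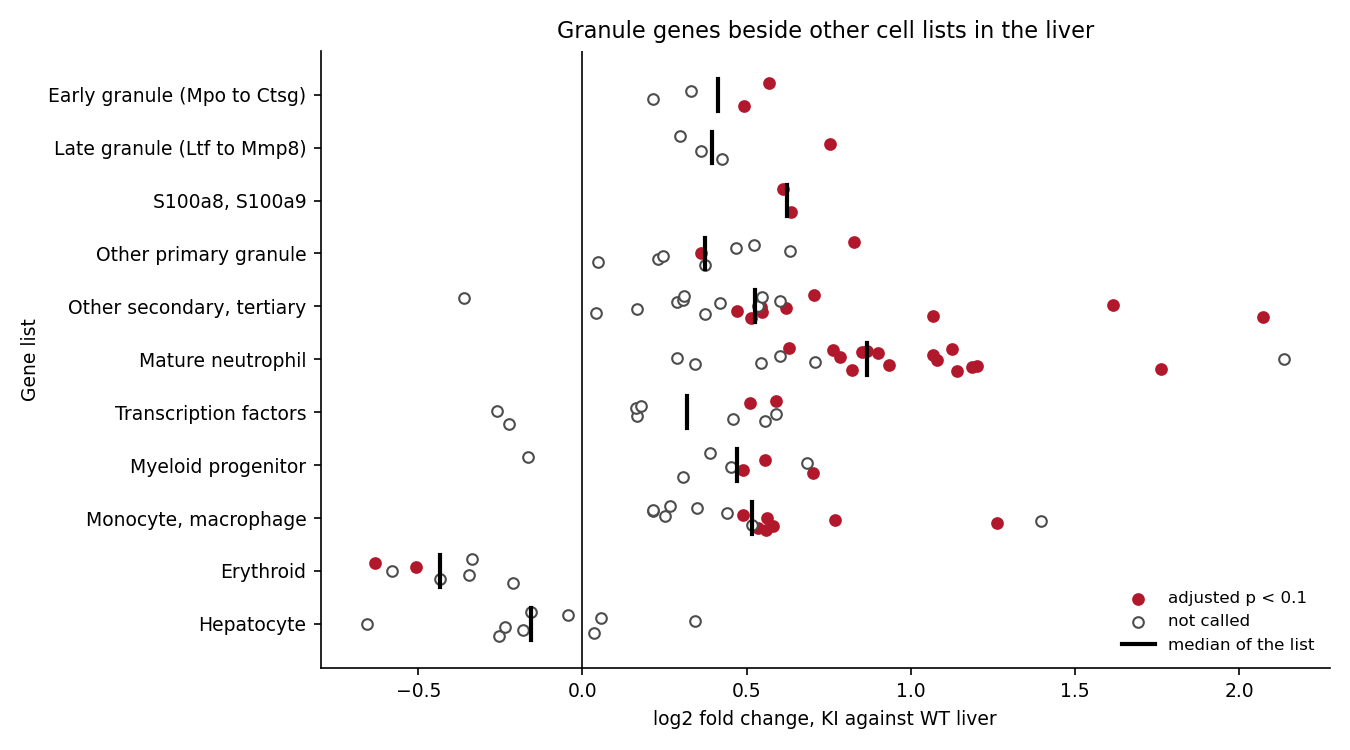
Log2 fold change of KI against WT liver for the 3 classes of granule genes and for 8 other gene lists, 1 point for each gene, filled in red where the adjusted p was under 0.1, with the median of each list as a black bar. The medians run from -0.43 for erythroid to 0.87 for mature neutrophil genes, and those of the early and late granule genes are 0.41 and 0.39.

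In the skin, 0 of 10 members were called, where 0.0247% of 16163 genes (4 genes) were higher and 0 lower. The 2 ends of granule formation had estimates of opposite sign: 3 of 4 early genes lay above 0 and 4 of 4 late genes below 0, and this was not tested for the classes. At an unadjusted p under 0.05, 1 member (Ltf) was lower, against 1.68% of all genes, and 0 were higher, against 2.89%.

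Ltf had 0.498 and 0.896 CPM in the KI skins and 1.32, 3.31, 1.58, 0.867 and 2.41 CPM in the WT skins, a log2 fold change of -1.39 ± 0.584 (SE, adjusted p = 0.999). Camp had 3.02 and 3.38 CPM in KI and 2.90 to 11.2 CPM in WT (-1.17 ± 0.541, adjusted p = 0.999), and Ngp 0.715 and 1.28 CPM against 1.30 to 3.83 CPM (-1.05 ± 0.499, adjusted p = 0.999). Ngp alone of these 3 did not overlap between the groups, by a narrow gap. Over the skins, 1 of 9 members with a mean count of at least 10 lay below each WT library in each KI library, against 5.82% of genes, and 1 of 9 (Elane) lay above, against 3.97%.

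Elane had 1.59 and 2.62 CPM in the KI skins and 1.26, 0.870, 1.29, 0 and 0.454 CPM in the WT skins (log2 fold change 1.47 ± 1.02, SE, adjusted p = 0.999), beside the Cfd levels described above. Prtn3 had 1.21 and 1.41 CPM in KI and 0.722 to 1.39 CPM in WT (0.33 ± 0.354), Ctsg 2.05 and 4.38 CPM against 1.02 to 6.74 CPM (-0.10 ± 0.705) and Mmp8 0.747 and 1.86 CPM against 1.24 to 2.30 CPM (-0.31 ± 0.432), all overlapping. Mpo had 3 and 18 counts in KI and 10, 8, 2, 0 and 1 in WT (1.39 ± 1.18, adjusted p = 0.999), and without KI 2 its estimate was -0.51. S100a8 had 4.32 and 5.07 CPM in KI and 2.98 to 8.11 CPM in WT, and S100a9 6.56 and 10.6 CPM against 3.24 to 14.6 CPM, so that both groups overlapped fully (-0.04 ± 0.394 and 0.12 ± 0.477). Standard errors of the 10 members ran from 0.354 to 1.18 in skin and from 0.117 to 0.203 in liver, so changes of the size seen in the liver could be missed in skin.

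The ratio of S100a9 to Ngp was higher in each KI skin than in each WT skin, without passing the correction. On the log2 scale it was 3.04 and 3.17 in KI and 1.31 to 2.10 in WT skins, a difference of 1.23 (exact permutation over 21 splits, two-sided p = 0.0476, the smallest possible, adjusted p = 0.143 over 9 ratios). Which skin cells made the transcripts of S100a8 and S100a9 was not tested. The ratio of Mpo to Ngp differed by 2.61 (exact permutation p = 0.143, adjusted p = 0.257), and the early-to-late share was -0.18 in KI and -1.64 ± 1.15 (SD, n = 5) in WT skins. The WT skins spanned -2.79 to 0.02 in this share, so that 1 WT skin lay between the KI skins. Ctsg was the largest part of the early sum and Camp of the late sum. They held means of 7.95% and 26.2% of the members' summed RPKM in WT skins, and 7.43% and 13.0% in KI skins. Both have the other skin sources named above, and the part of those sources in this share was not tested.

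Of the accompanying lists in skin, 1 of 20 other late granule genes was higher (Lrg1, 2.48 ± 0.267, adjusted p = 0.0899), 1 of 9 transcription factors (Cebpd, 1.21 ± 0.123, adjusted p = 0.0899) and 1 of 11 growth factors and adhesion genes (Selp, 1.78 ± 0.178, adjusted p = 0.0899), and 11 of these last 11 had estimates above 0 with a median of 1.75. These skin calls did not outlast the loss of a mouse, since 0 of all genes were called without KI 1, KI 2, WT 1, WT 2, WT 4 or WT 5 and 1 without WT 3. Which skin cells made the transcripts of Lrg1, Cebpd and Selp was not tested. Of 19 mature neutrophil genes edgeR called 0 (median 0.89), and DESeq2 called 1 of 21. Those with the lowest p were Clec4d (1.80, adjusted p = 0.680), at 1.84 and 2.21 CPM in KI and 0.372 to 0.940 CPM in WT skins, and Cxcr2 (2.07, adjusted p = 0.819), at 1.09 and 1.45 CPM and 0.0578 to 0.487 CPM, and for both the KI skins lay above each WT skin. Keratinocyte markers summed to 1036 and 14331 CPM in KI and 1675 to 17095 CPM in WT skins, so the make-up of the skin pieces varied within both groups, and its part in these values was not tested.

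In the brain, 4 of 10 members had enough counts to be tested, and 0 were called, as were 0 of all 16322 genes. All 4 estimates lay below 0, with a median of -1.59. At an unadjusted p under 0.05, 2 of the 4 were lower (Ngp and S100a9), against 7.81% of all genes, and 0 were higher, against 2.8%.

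Ngp had 1 count in each KI brain and 8, 10, 9, 15 and 17 counts in the WT brains. Pooled over mice, this is 0.0289 CPM in KI and 0.381 CPM in WT, a WT level 13.2 times that of KI with an exact 95% interval of 3.48 to 111 for counting error alone. The edgeR log2 fold change was -3.61 ± 0.795 (SE, adjusted p = 0.265). S100a9 had 27 and 10 counts in KI and 87, 91, 33, 60 and 85 in WT (-2.16 ± 0.598, adjusted p = 0.304). For both genes each KI brain lay below each WT brain.

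S100a8 had 35 and 9 counts in KI and 40, 56, 12, 50 and 36 in WT brains (-1.02 ± 0.688, adjusted p = 0.654), and Prtn3 differed by -0.52 ± 0.487 (adjusted p = 0.741). Both overlapped between the groups. Camp had 0 counts in both KI brains and 0, 5, 4, 6 and 7 in WT brains. The pooled WT level was 3.27 times a limit of 3 counts over the KI group. That limit covers counting error of the KI group alone, so 3.27 is not a lower bound. With no filter the edgeR adjusted p for Camp was 0.491. Ctsg had 0 counts in both KI brains and 0 to 3 in WT brains, and Ltf 2 in each KI brain and 0 to 9 in WT brains. Mpo had 5 counts in each KI brain and 1, 1, 1, 6 and 0 in WT brains, Mmp8 6 and 2 in KI and 4, 5, 1, 2 and 1 in WT, and Elane 1 count in each genotype. With no filter on low counts these last 3 members had estimates above 0, and the test called 0 of the 3.

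Of 3 members with a mean count of at least 10 in brain, 1 (S100a9) lay below each WT library in each KI library, against 14.5% of genes, and 0 lay above, against 13.3%. The brain calls depended on the setting. DESeq2 called 1 member lower (S100a9), with 3.03% of all genes called lower, the fit of all 21 libraries called Ngp and S100a9 lower, with 2.44% of all genes, and without WT 5 the same 2 were called, with 6.32% of all genes.

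Most red cell markers in the brain also had estimates below 0. Of 7 tested erythroid markers 0 passed, 2 had estimates above 0 and the median was -0.48, with Alas2 at -1.11 (adjusted p = 0.446). Alas2 had 4.18 and 5.60 CPM in KI brains and 10.8, 15.6, 7.31, 13.6 and 4.63 CPM in WT brains, and the erythroid list summed to 106 and 109 CPM in KI and 91.2 to 187 CPM in WT brains, with 4 of 11 markers at 0 in each brain. The part of blood held in the brain in the Ngp and S100a9 values was not tested. Of 9 mature neutrophil genes 0 passed (median -0.42), and of 8 microglia markers 0 passed (median -0.03).

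**Figure D5:**
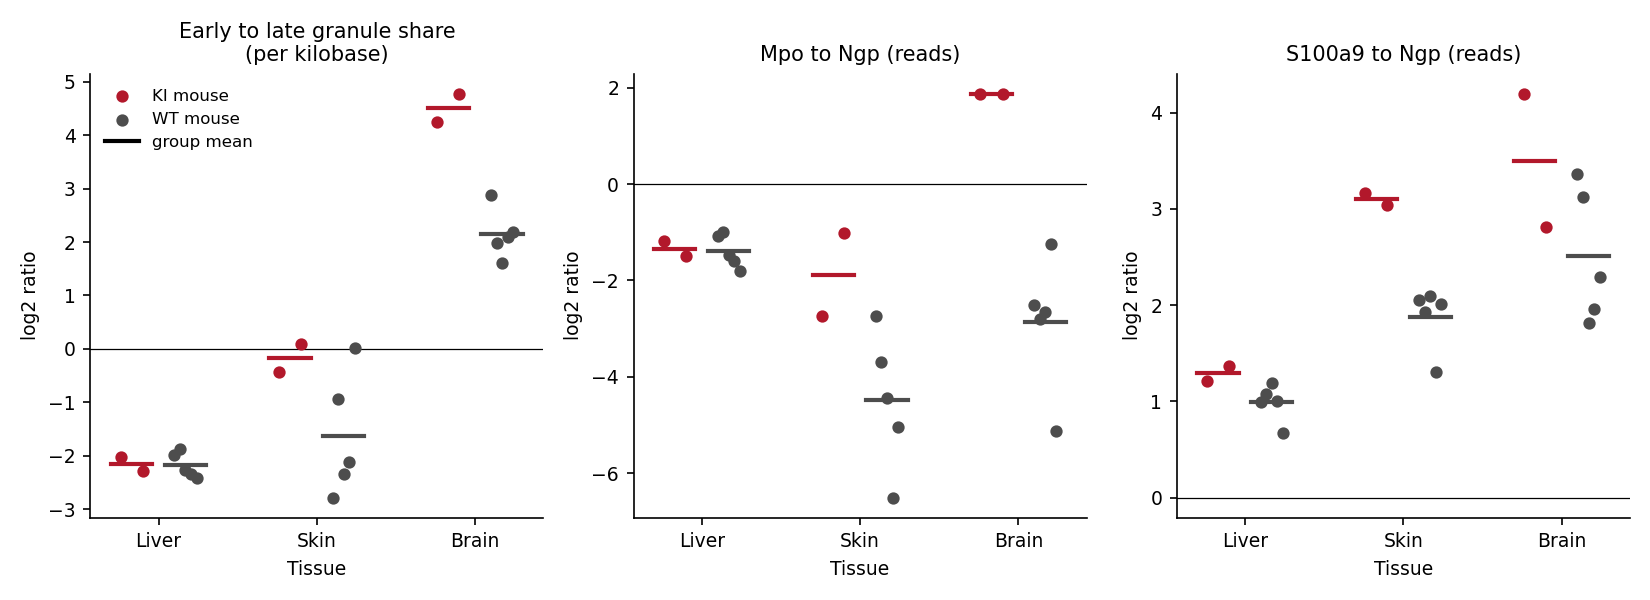
Log2 ratios for each mouse in liver, skin and brain: the summed early over the summed late granule genes per kilobase, and the read ratios of Mpo to Ngp and of S100a9 to Ngp, with KI in red, WT in grey and group means as bars. In the liver the group means are -2.15 and -2.18 in the first panel, while in the brain they are 4.51 and 2.15, with Prtn3 as most of the early sum.

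In brain the Mpo to Ngp ratio was 1.87 on the log2 scale in both KI mice and -5.13 to -1.25 in WT mice, a difference of 4.75 (exact permutation over 21 splits, two-sided p = 0.0476, the smallest possible, adjusted p = 0.143). It rests on 1 to 17 counts of Ngp and 0 to 6 of Mpo in a library. The ratio of S100a8 to S100a9 also lay higher in each KI brain than in each WT brain, by 1.06 in the mean (exact permutation p = 0.0476, adjusted p = 0.143), whereas that of S100a9 to Ngp differed by 0.99 (exact permutation p = 0.238, adjusted p = 0.357). Of 9 ratios between the genotypes, 0 had an adjusted p under 0.1.

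The differences between tissues in the KI estimates were tested directly in the 21-library fit. Between liver and brain, 2 of 10 members differed, Ngp by 3.77 ± 0.808 (SE, adjusted p = 0.0335) and S100a9 by 2.66 ± 0.660 (adjusted p = 0.0542), both with the higher KI estimate in the liver, where 1.77% of 18062 genes were called in that direction and 1.05% in the other. When 1 mouse was left out, the difference ran from 3.61 to 3.90 for Ngp and from 1.99 to 3.64 for S100a9. The calls depended on single mice. At an adjusted p under 0.05 the count of members was 1. The share of all genes called in these alternatives is not reported here.

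Between liver and skin, 0 of 10 members differed, against 0.0664% of genes called with the higher estimate in the liver and 0.0332% with the lower. The 4 late genes had the lowest p, each with an estimate above 0: Ltf by 1.72 ± 0.615 (SE), Camp by 1.56 ± 0.559, Ngp by 1.31 ± 0.447 and Mmp8 by 1.03 ± 0.403, with adjusted p from 0.579 to 0.754 in edgeR. Those 4 of 10 members at an unadjusted p under 0.05 stand against 2.44% of all genes, and 0 members with the lower estimate against 3.11%. Between skin and brain, 0 of 10 differed, as did 0 of 18062 genes, and at an unadjusted p under 0.05 2 members (Ngp and S100a9) had the higher estimate in skin, against 4.12% of genes, and 0 the lower, against 3.29%.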

How the data were processed

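Whole-tissue RNA of brain, liver and skin was sequenced, 1 library for each mouse and tissue. According to the labels and the study's methods, the authors aligned reads to mm9 with TopHat2 and counted them on gene symbols with HTSeq. The deposited values are raw read counts. The 5 summary lines of each file, for reads not assigned to a gene, were left out of all totals and tests. Genotypes within a tissue, WT tissues, and genotype effects between tissues were compared in edgeR 4.0.16 by its quasi-likelihood test (TMM, filterByExpr, R 4.3.3) on all genes, Benjamini-Hochberg adjusted, called at 0.1. DESeq2 1.42.0, no filter, other size factors, an adjusted p of 0.05, 1 fit of all libraries, a replicate block and leaving out each mouse were alternatives. The edgeR steps were tested on simulated data. RPKM used GENCODE exon lengths on NCBIM37. Single-gene ratios, with 0.5 added to each count, were tested by exact permutation.

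All 10 members are described in each tissue. From each list, up to 4 called genes with the largest change were named, or up to 2 with the lowest p where 0 were called. Some genes of the lists are not reported here by name. Genes on no list are Jak1, 2 neighbours of members (Cfd, Lppr3) and the 5 genes most correlated with Mpo and with Ngp over the livers. The members and lists were chosen with earlier results of these data known. Of 189 listed genes, 187 were matched (Ly6g and Ahsp were not). Tissue libraries of 1 genotype and number were taken as 1 mouse by their titles. KI and WT mice share numbers 1 and 2, and same-numbered libraries correlated at 0.02 and -0.10 in brain, -0.03 and -0.09 in liver, and 0.20 and 0.04 in skin.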

Additional observations from a re-analysis of the deposited data

Results flagged for a closer look

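Levels were examined in 30 groups of WT libraries for a library far from the others. The rule was the share of the range that lies in its gap to the nearest. Chance passes this rule in about 1 of 20 groups of continuous, normal values. That rate does not hold where counts are few, since a lone count among counts of 0 always passes. The rule flagged 2 groups, both with few counts. Mpo had 0.179 CPM in the brain of WT 4 against 0 to 0.0323 CPM in the other WT brains, on 6 counts. Elane had 0.0377 CPM in the brain of WT 5, on 1 count, against 0 in the others.

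The KI estimate differed between liver and brain for Ngp, by 3.77 on the log2 scale (SE 0.808, edgeR adjusted p = 0.0335), and for S100a9, by 2.66 (SE 0.660, adjusted p = 0.0542). Both had estimates above 0 in liver and below 0 in brain, and the brain side of Ngp rests on 1 count in each KI library.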

How the results depend on the processing

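Among alternative values of counts, ratios and shares, 252 kept within their limits and 19 moved. Counts of members called, given as their range when 1 mouse was left out, were 0 to 5 in the liver (main 5), 0 to 2 in the brain (main 0), 0 in skin, 0 to 2 for liver against brain (main 2), 10 for WT liver against either tissue, and 7 to 8 for WT skin against brain. Over all genes, the share called higher in KI liver ran from 0.32% (without KI 2) to 5.31% (DESeq2) around a main value of 3.89%, and that called lower from 0.0456% to 3.94% around 1.68%. The share called lower in KI brain ran from 0% to 8.47% (replicate block) around 0%, and that called higher from 0% to 4.8%. In skin, 0% to 0.623% (DESeq2) were called higher around 0.0247%. An adjusted p under 0.05 gave 1 in the liver and 1 for liver against brain. For liver against brain, the shares of all genes called in the alternatives are not reported here. The fit of all 21 libraries gave 0 in the liver and 2 in the brain, and DESeq2 gave 6 in the liver and 1 in the brain. With the replicate number as a block, 4 members were called in the liver and 1 in the brain. The numbers are not known to pair KI with WT mice, and the block also turned the estimates of Elane in liver (-0.037), and of Mpo (-0.034), Ctsg (0.39) and S100a9 (-0.42) in skin, put the log2 Mpo to Ngp difference in liver at -0.30, that of S100a9 to Ngp in brain at 0.26 and the early-to-late difference in liver at -0.22. With the mouse as a block, which pairs the tissues of 1 mouse, the counts of members between tissues did not change. The early-to-late difference in brain fell from 2.37 to 1.53 without length correction and to 1.57 as a geometric mean.

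Estimates that changed sign when 1 mouse was left out ranged, in skin, from -0.51 to 2.23 for Mpo, -0.76 to 0.39 for Ctsg, -1.12 to 0.25 for Mmp8, -0.17 to 0.19 for S100a8 and -0.29 to 0.46 for S100a9. For liver against brain they ranged from -1.90 to 1.46 for Elane and -0.62 to 1.43 for Mmp8, for liver against skin from -2.01 to 0.87 for Mpo, and for skin against brain from -1.76 to 0.90 for Mpo, -0.73 to 2.33 for Elane, -0.70 to 0.12 for Ltf and -2.14 to 0.67 for Mmp8. None of these was called. The causes were not tested. With 2 KI mice, the liver calls depend on both. In skin, mice of both groups differed widely from each other. In brain the 2 KI libraries agreed more closely over the genes counted than any 2 WT libraries did. S100a8 still had 35 and 9 counts in them. WT 5 lay furthest from the other WT brains.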
